A study of Homo sapiens with 8 samples.

Results

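The nuclear-encoded genes of respiratory complex I were followed in an Ewing sarcoma cell line in which FEZF1, a zinc finger transcription factor, was knocked down. The genes were chosen by name, with earlier results of these data known. They are 37 genes for subunits of the complex and 7 genes for assembly factors (NDUFAF1 to NDUFAF7), 44 of the 34792 genes summed from the transcript files. NDUFA4 is counted here among the subunits by its name, although it is now assigned to cytochrome c oxidase, the complex IV of the chain.

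Complex I (NADH:ubiquinone oxidoreductase) takes electrons from NADH and passes them to ubiquinone, and pumps protons across the inner mitochondrial membrane. Its peripheral arm has an N module, where NADH is oxidised, and a Q module, where ubiquinone is reduced. Its membrane arm has a proximal part built around the mitochondrially encoded subunits ND1 and ND2, and a distal part built around ND4 and ND5. Most of its subunits are encoded in the nucleus, translated in the cytosol, imported and put together in steps that need assembly factors, which are not part of the finished enzyme.

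A673 is an Ewing sarcoma line that carries the EWSR1-FLI1 fusion. All 8 cultures were A673/TR/shFEZF1 cells, which express the tetracycline repressor (TR) and carry an shRNA against FEZF1 behind an H1 promoter that doxycycline releases. They came from 4 origins: a polyclonal population (labelled bulk) and clones 3, 5 and 6. Each origin gave 1 untreated culture and 1 culture given doxycycline at 1 µg/mL for 72 h. The TR line behind all of them was itself 1 clone, and the shRNA clones had been picked for strong loss of FEZF1 protein. A culture with doxycycline but without the shRNA was not analysed here, so the drug and the shRNA cannot be told apart. Poly(A) RNA was sequenced, and between 26719886 and 42422421 reads per library were assigned to transcripts. Of these reads, 89.9% to 91.1% fell on transcripts that could be matched to a gene symbol. The p-values measure the spread between these cultures, since each origin is 1 population.

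Counts per gene are given as CPM, read counts scaled to the size of each library after normalisation by edgeR's TMM method. CPM serves to compare 1 gene between libraries. Levels of different genes are compared as TPM, which also divides by transcript length. The test was edgeR's quasi-likelihood test with origin as a block, so that each doxycycline culture was compared with the untreated culture of the same origin, with Benjamini-Hochberg adjustment over 15993 genes, and a gene was called at an adjusted p under 0.05. FEZF1, the target of the shRNA, was at 96.4, 70.5, 107 and 74.4 CPM in the untreated polyclonal population and clones 3, 5 and 6, and at 60.6, 43.0, 60.8 and 36.4 CPM with doxycycline. Every doxycycline culture was below its untreated partner (log2 fold change -0.81, standard error 0.0726, adjusted p = 0.00594). Without the block its adjusted p was 0.29. All 8 marker genes of Ewing sarcoma were measured, summing to 1571 to 3104 CPM in the untreated and 1552 to 3343 CPM in the doxycycline cultures, with CD99 alone at 1524 ± 531 and 1593 ± 644 CPM. Of the 8, edgeR called 4: NR0B1 (log2 fold change 0.67, adjusted p = 0.00745) and NKX2-2 (0.30, adjusted p = 0.0414) were higher, and LIPI (-0.30, adjusted p = 0.0203) and GLI1 (-0.77, adjusted p = 0.0268) lower. The 10 markers of blood, epithelium, endothelium and fibroblasts summed to 7.53 to 24.1 and 8.22 to 23.4 CPM, with CD3E and CDH5 at 0 in every library. ITGAM, a myeloid marker of that list, was called higher with doxycycline (0.578 ± 0.233 against 1.57 ± 1.202 CPM, SD, n = 4; adjusted p = 0.0414), and its part in the results was not tested.

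With doxycycline, 1 of the 44 genes changed: the assembly factor NDUFAF2 rose in all 4 pairs. None of the 37 subunit genes was called by edgeR with the block, where 7.63% of all genes tested were called. At an unadjusted p under 0.05 there were 3 subunits and 1 assembly factor. The share of all genes under that limit was not counted, so this count has no background beside it. DESeq2 with the same block called NDUFA4 and NDUFAF2, against 13.8% of the genes to which it gave an adjusted p. The 44 genes all passed the filter on low counts. No member had its 4 doxycycline cultures on 1 side of its 4 untreated cultures, as 4.94% of all genes had, and 7 of the 44 moved in 1 direction in 4 of 4 pairs, against 33.3% of all genes. The fitted log2 fold changes of 41 members lay within 0.2 of 0, and those of 33 within 0.1. The standard error of a subunit's log2 fold change was between 0.0493 and 0.15, with a median of 0.0695. In bulk RNA, fewer cells with a transcript and less of it per cell cannot be told apart.

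**Figure D1:**
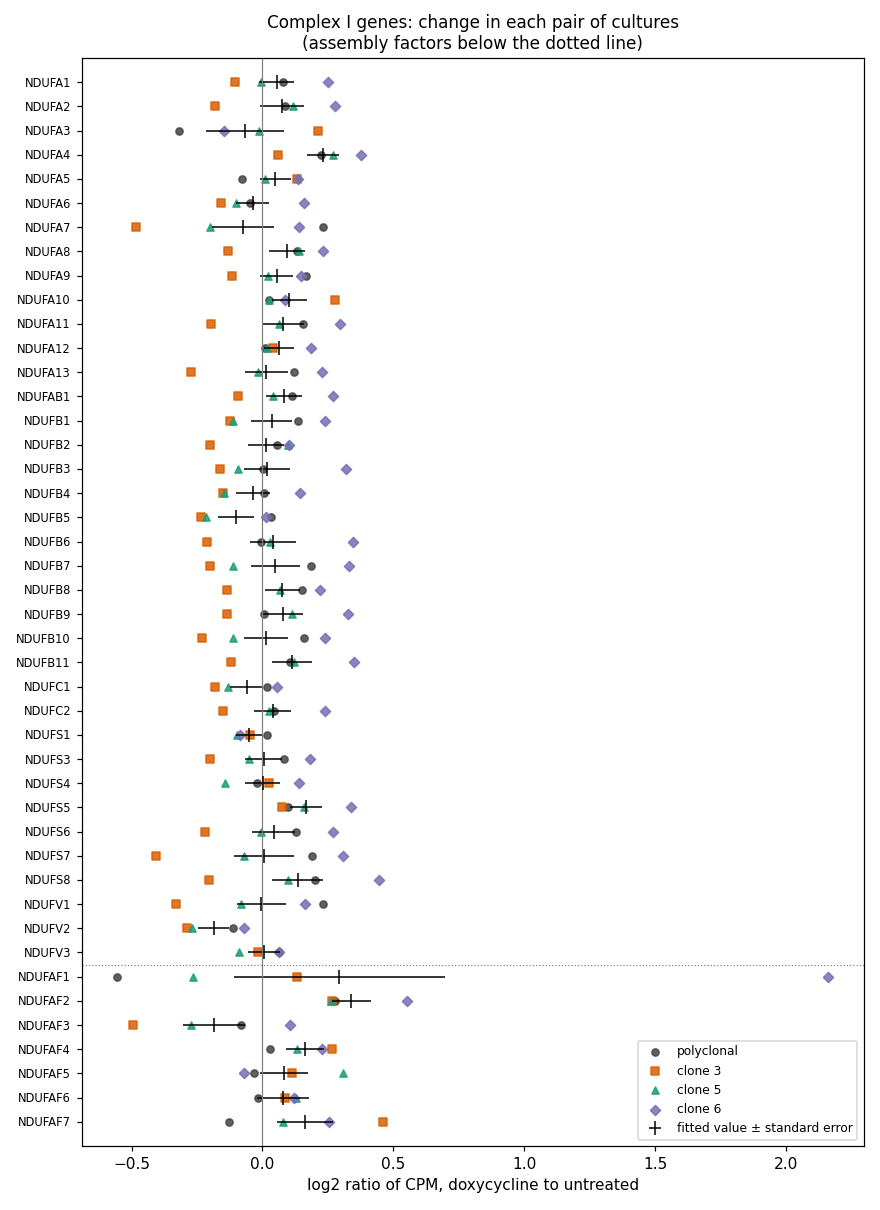
Log2 ratio of CPM, doxycycline to untreated, for each of the 44 genes (rows) in the 4 pairs of cultures (points), with the fitted value and its standard error (black). The points of NDUFAF2 and NDUFA4 all lie above 0 and those of NDUFV2 all below it, while in most subunits clone 3 (squares) lies to the left and clone 6 (diamonds) to the right.

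NDUFAF2 (gene 91942, chromosome 5, 60945205 to 61153026, GRCh38) encodes a factor that binds a late intermediate of complex I and stands in for NDUFA12, the subunit that takes its place. It was at 32.6, 32.9, 31.8 and 39.2 CPM in the untreated polyclonal population and clones 3, 5 and 6, and at 39.6, 39.6, 38.1 and 57.5 CPM in the same origins with doxycycline. Each culture rose over its own partner, but the untreated culture of clone 6 was level with the doxycycline cultures of the other 3 origins, so that the groups overlapped. It averaged 34.1 ± 3.40 CPM untreated and 43.7 ± 9.22 CPM with doxycycline (SD, n = 4), and the fitted difference was 0.34 ± 0.07 on the log2 scale (estimate ± standard error, as in all log2 fold changes below; adjusted p = 0.0374). The call was lost without clone 6, where the log2 fold change was 0.27 (adjusted p = 0.115), and also when any other origin was left out (adjusted p = 0.0738 to 0.129) or without the block (adjusted p = 0.673). The gene had 1 transcript in the files. NDUFA12 itself was at 70.5 ± 7.46 CPM untreated and 74.0 ± 12.2 CPM with doxycycline (log2 fold change 0.06 ± 0.06, adjusted p = 0.567).

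The sequence before the start of NDUFAF2 is shown because it was the member that changed. Those of NDUFAB1 and NDUFS1, described further on, are shown because these genes had the 2 smallest p-values between origins. Each is 250 bases upstream of the annotated start from RefSeq (GRCh38.p14), written 5′ to 3′ on the gene's own strand, and capitals mark a match to 1 of 4 motifs.
NDUFAF2 (chr5:60944955-60945204, plus strand): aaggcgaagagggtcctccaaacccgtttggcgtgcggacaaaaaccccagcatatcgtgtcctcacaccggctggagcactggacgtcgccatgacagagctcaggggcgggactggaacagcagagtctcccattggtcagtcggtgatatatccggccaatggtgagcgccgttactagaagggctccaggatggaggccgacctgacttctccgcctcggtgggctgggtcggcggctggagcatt
NDUFS1 (chr2:206159445-206159694, minus strand): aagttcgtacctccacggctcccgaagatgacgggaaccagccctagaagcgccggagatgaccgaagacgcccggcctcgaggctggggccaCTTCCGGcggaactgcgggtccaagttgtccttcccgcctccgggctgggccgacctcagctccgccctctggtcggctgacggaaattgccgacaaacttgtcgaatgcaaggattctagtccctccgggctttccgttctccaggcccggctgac
NDUFAB1 (chr16:23596317-23596566, minus strand): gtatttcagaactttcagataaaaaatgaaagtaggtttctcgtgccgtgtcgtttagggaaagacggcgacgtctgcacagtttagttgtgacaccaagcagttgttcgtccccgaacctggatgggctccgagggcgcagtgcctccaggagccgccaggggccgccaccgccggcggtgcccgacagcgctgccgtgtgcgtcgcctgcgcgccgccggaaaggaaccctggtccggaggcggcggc

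The motifs were the core of the NRF1 element (GCATGCGC), the ETS element that GABP also uses (CCGGAAG), the YY1 element (AAGATGGC) and a short GGAA repeat (GGAAGGAA), searched on both strands from 250 bases before to 50 bases after each start. The ETS element and the repeat can share letters. Of the members, 38 had an entry, 32 subunits and 6 assembly factors. The NRF1 core stood in 6 of the 32 subunit promoters (18.8%), those of NDUFA5, NDUFA6, NDUFA8, NDUFB4, NDUFS6 and NDUFS7, against 4.89% of protein-coding genes. The YY1 element stood in 7 (21.9%, against 4.67%), those of NDUFA3, NDUFA6, NDUFA7, NDUFA9, NDUFB8, NDUFS4 and NDUFS7. The ETS element stood in 5 (15.6%, against 16.5%), with NDUFS1 among them, where it begins 157 bases before the start. The GGAA repeat was in none of the 32, against 4.94% of protein-coding genes. Among the assembly factors, NDUFAF4 had the NRF1 core and the ETS element, and NDUFAF5 the NRF1 core. The window of NDUFAF2 held none of these 4 sets of letters. A match is a description of the sequence, and binding was not measured.

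The other 5 members with the smallest p-values did not pass the test. NDUFA4 (gene 4697, chromosome 7, 10931943 to 10940153) was at 199, 238, 219 and 250 CPM in the untreated polyclonal population and clones 3, 5 and 6, and at 233, 248, 264 and 324 CPM with doxycycline. It was higher in 4 of 4 pairs, with overlapping groups, and its log2 fold change was 0.23 ± 0.06 (adjusted p = 0.0618). DESeq2 with the block gave an adjusted p of 0.0231. The gene had 1 transcript in the files.

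NDUFV2 (gene 4729, chromosome 18, 9102699 to 9134341) encodes a core subunit of the N module that holds an iron-sulphur cluster. It was at 99.95, 104, 97.9 and 132 CPM untreated and at 92.4, 85.4, 81.2 and 126 CPM with doxycycline, in the same order of origins. This was the only subunit lower in 4 of 4 pairs, by a log2 fold change of -0.19 ± 0.06 (adjusted p = 0.105). The spread between origins was wider than the change, with both clone 6 cultures above the other 6. NDUFS5, an accessory subunit of the membrane arm, was at 84.4, 87.9, 99.4 and 94.8 CPM untreated and 90.4, 92.7, 111 and 120 CPM with doxycycline. It was higher in 4 of 4 pairs (log2 fold change 0.17 ± 0.06, adjusted p = 0.144), and the groups overlapped.

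NDUFAF4, an assembly factor that acts on an early intermediate together with NDUFAF3, was at 26.3, 17.2, 32.3 and 31.5 CPM untreated and at 26.8, 20.7, 35.4 and 36.9 CPM with doxycycline. The pairs all pointed up, while clone 3 stayed below the other origins in both states (log2 fold change 0.16 ± 0.07, adjusted p = 0.216). NDUFAF3 was at 13.6, 13.8, 12.6 and 14.5 CPM untreated and at 12.9, 9.77, 10.4 and 15.6 CPM with doxycycline. It was lower in 3 pairs and higher in clone 6, with a log2 fold change of -0.19 ± 0.12 (adjusted p = 0.385). These 2 partners thus had estimates of opposite sign, neither of which passed the test.

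**Figure D2:**
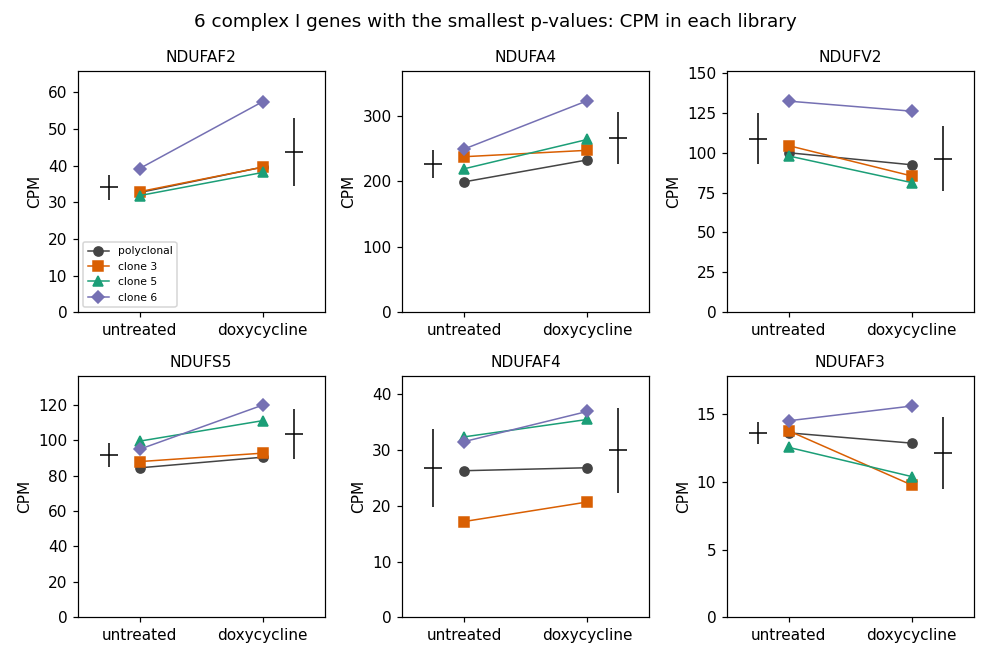
CPM of the 6 members with the smallest p-values in each library, on axes from 0, with lines joining the untreated and doxycycline culture of an origin and black marks for the mean ± SD of 4 cultures. The lines of NDUFAF2, NDUFA4, NDUFS5 and NDUFAF4 all rise and those of NDUFV2 all fall, and the doxycycline and untreated points overlap in each panel.

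The remaining members are described by their place in the complex. In the N module, 10 genes (NDUFV1 to NDUFV3, NDUFS1, NDUFS4, NDUFS6, NDUFA2, NDUFA6, NDUFA7 and NDUFA12) had log2 fold changes between -0.19 and 0.07, with a median of 0.00. NDUFV1, which binds NADH and its flavin, was at 140 ± 3.55 CPM untreated and 141 ± 20.9 CPM with doxycycline. In the Q module, the 4 genes NDUFS3, NDUFS7, NDUFS8 and NDUFA5 lay between 0.00 and 0.13 (median 0.03). The widest of them was NDUFS8, which carries iron-sulphur clusters, at 69.0 ± 2.78 and 76.5 ± 13.2 CPM (log2 fold change 0.13 ± 0.10, adjusted p = 0.456).

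In the part around ND1, NDUFA3, NDUFA8, NDUFA9 and NDUFA13 lay between -0.07 and 0.09 (median 0.03). In the part around ND2, NDUFA1, NDUFA10, NDUFA11, NDUFC1, NDUFC2 and NDUFS5 lay between -0.06 and 0.17 (median 0.07). In the distal arm, the 6 genes of the ND4 part (NDUFB1, NDUFB4, NDUFB5, NDUFB6, NDUFB10 and NDUFB11) lay between -0.10 and 0.11 (median 0.02). The 6 genes of the ND5 part (NDUFB2, NDUFB3, NDUFB7, NDUFB8, NDUFB9 and NDUFAB1) lay between 0.01 and 0.08 (median 0.06). None of these parts held a called gene. Over the 37 subunits the median log2 fold change was 0.04, over all genes tested 0.00. The subunits without NDUFA4 had a median of 0.04 as well. The median of the 37 was -0.03 without clone 6, 0.10 without clone 3 and 0.01 without the polyclonal population.

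The assembly factors had a median log2 fold change of 0.16, with 6 of 7 above 0 and 1 called, and of 0.08 without clone 3. Outside the 3 factors described above, NDUFAF7, a methyltransferase, was at 19.02 ± 4.58 and 21.1 ± 3.60 CPM (log2 fold change 0.16 ± 0.11, adjusted p = 0.396). NDUFAF5, a hydroxylase of NDUFS7, was at 17.7 ± 1.07 and 18.9 ± 3.30 CPM (0.08 ± 0.09, adjusted p = 0.643). Transcripts of NDUFAF1, NDUFAF5 and NDUFAF7 were matched only in part: the matched reads came to 31.5%, 75.6% and 72.4% of the authors' mean for these genes. The same held for the subunits NDUFA3 (12.1%) and NDUFA10 (32.8%), and 39 members were at 98.4% to 101.5%. Over the 4 factors at 95% or more, the median was 0.12.

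Measured per length, subunit transcripts stood above those of the assembly factors. The median subunit was at 214 TPM and the median factor at 20.4 TPM, as means over the 8 libraries. NDUFA1 was the highest member, at 723, 705, 723 and 807 TPM in the untreated polyclonal population and clones 3, 5 and 6 and at 743, 683, 722 and 912 TPM with doxycycline. NDUFA13, also known as GRIM-19, was next, at 680, 673.3, 761 and 718 TPM untreated and 723, 580, 758 and 803 TPM with doxycycline. Their group means, 739 ± 46.0 and 708 ± 40.62 TPM untreated, differed by less than 1 SD of either. After a gap wider than these SDs came NDUFB8 (497 ± 16.6 TPM untreated), NDUFB9 (490 ± 26.4), NDUFS3 (463 ± 24.0) and NDUFB1 (460 ± 63.8). Genes next to each other in this order had overlapping ranges of mean ± SD.

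At the other end, NDUFAF6 was at 9.15, 8.43, 7.74 and 9.19 TPM untreated and 9.07, 9.42, 8.82 and 9.55 TPM with doxycycline. NDUFAF1, with its partial match, was listed at 7.89, 6.85, 7.99 and 1.69 TPM untreated and 5.31, 8.21, 6.89 and 8.55 TPM with doxycycline, and its lowest value was that of untreated clone 6. NDUFAF2 was the most abundant assembly factor, at 118 ± 10.4 TPM untreated and 150.0 ± 23.6 TPM with doxycycline, above NDUFAF3 at 29.8 ± 2.17 and 26.5 ± 4.91 TPM and NDUFAF5, matched in part, at 26.8 ± 1.31 and 28.6 ± 4.496 TPM, which were not apart. The summed level of the 7 factors was 222 ± 11.7 TPM untreated and 257 ± 26.2 TPM with doxycycline. Without NDUFAF2 it was 104 ± 7.64 and 107 ± 7.98 TPM. The 37 subunits summed to 9377 ± 374 TPM untreated and 9647 ± 1082 TPM with doxycycline, a difference smaller than the SD of the second group.

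The 4 pairs pointed in different directions. With doxycycline, the subunits' sum went from 9130 to 9554 TPM in the polyclonal population, from 9088 to 8486 TPM in clone 3, from 9391 to 9446 TPM in clone 5 and from 9900 to 11100 TPM in clone 6. Gene by gene, 31 of 37 subunits were higher with doxycycline in the polyclonal population, 7 in clone 3, 17 in clone 5 and 34 in clone 6, where 51.4%, 51.1%, 49.6% and 50.8% of all genes were higher. The median log2 ratio of the subunits was 0.08, -0.15, -0.01 and 0.23 in the same order. In the ND4 and ND5 parts of the distal arm, 0 of 12 genes were higher in clone 3 and 12 of 12 in clone 6. The median of the 7 assembly factors did not fall in clone 3, with median log2 ratios of -0.03, 0.13, 0.13 and 0.23. In clone 3, 6 of the 7 were higher, and NDUFAF3 was lower, with a log2 ratio of -0.49. NDUFAF1, NDUFAF5 and NDUFAF7 among them were matched only in part.

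The same order of pairs was seen in complexes III and IV and in ATP synthase. In clone 3 the median log2 ratios were -0.20, -0.18 and -0.17 in these 3 groups, and in clone 6 they were 0.24, 0.28 and 0.15. It was also seen in the medians over short transcripts. Among the 532 tested genes with an effective length of 500 to 1000 bases and a mean log2 CPM of at least 4, the medians were 0.09, -0.15, 0.00 and 0.20 in the polyclonal population and clones 3, 5 and 6. Among the 2858 such genes over 4000 bases they were -0.01, 0.02, 0.02 and -0.14. The subunits had a median effective length of 575 bases, and 27 of 37 were under 1000 bases. For the assembly factors the median was 1446 bases, and 2 of 7 were under 1000 bases, NDUFAF3 among them.

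When a smooth trend of each library on transcript length was taken out, a step added after these values were seen, the subunit medians became 0.04, -0.06, 0.00 and 0.11. Of the 37 subunits, 25, 9, 18 and 27 were then higher in the 4 pairs. Over all 15993 genes tested the counts were 8131, 7617, 7771 and 7968. Of the 532 genes of 500 to 1000 bases, 335, 188, 281 and 315 were higher. That class thus kept fewer genes higher in clone 3 than in the other pairs. In that fit NDUFAF2 (adjusted p = 0.019), NDUFA4 (0.0422) and NDUFV2 (0.0275) were called by edgeR, against 10.2% of all genes. Without the block as well, none of the 44 was called.

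**Figure D3:**
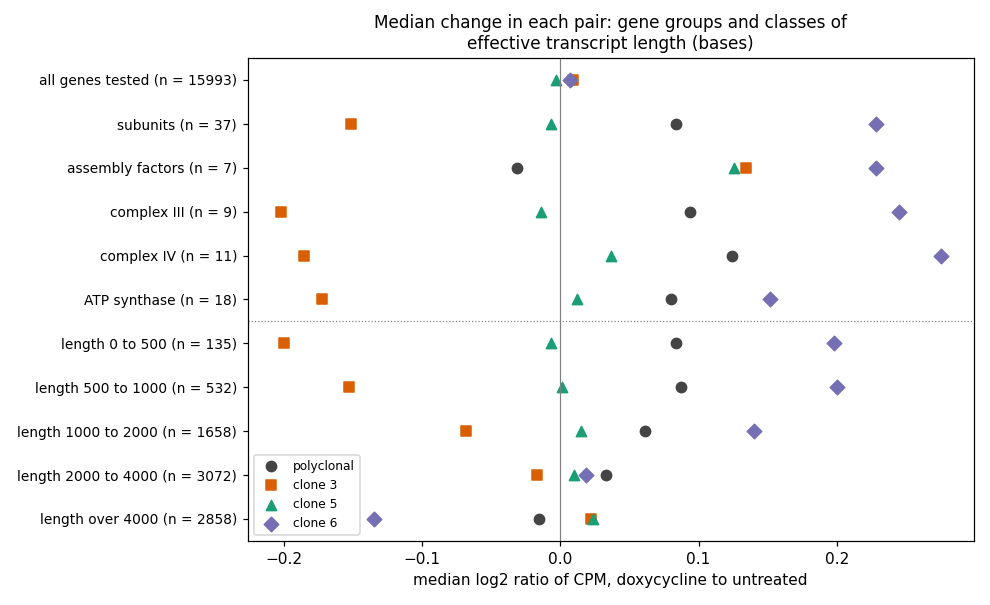
Median log2 ratio of CPM, doxycycline to untreated, in each of the 4 pairs (points) for gene groups (top) and for all tested genes with a mean log2 CPM of at least 4 by effective transcript length in bases (bottom), with the number of genes. Subunits, complexes III and IV, ATP synthase and the classes under 1000 bases share the order clone 3, clone 5, polyclonal population, clone 6, and the class over 4000 bases has clone 6 lowest.

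More of the 44 genes differed between the 4 origins than with doxycycline. The F test of edgeR over the origins called 23 of them (20 subunits and 3 assembly factors), where 39.4% of all genes were called. Without clone 6 the same test called 3 of the 44, and with curated transcripts only it called 14. The share of all genes called between origins is not given for these settings. The doxycycline calls over all genes also fell in them, from 1221 to 230 and 493 in edgeR. Among those 23, the mean of the highest origin was 1.32 to 2.05 times that of the lowest, with a median of 1.40. Clone 6 had the highest mean in 31 of the 37 subunits, and clone 3 the lowest in 20. The highest single library was clone 6 with doxycycline in 31 of 37 subunits and 5 of 7 assembly factors, where it was the highest in 19.5% of all genes. With the length trend taken out, 17 of the 44 were called between origins, all of them among the 23, against 42.8% of all genes. Those no longer called were NDUFA1, NDUFA2, NDUFA8, NDUFA12, NDUFC1 and NDUFAF2.

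**Figure D4:**
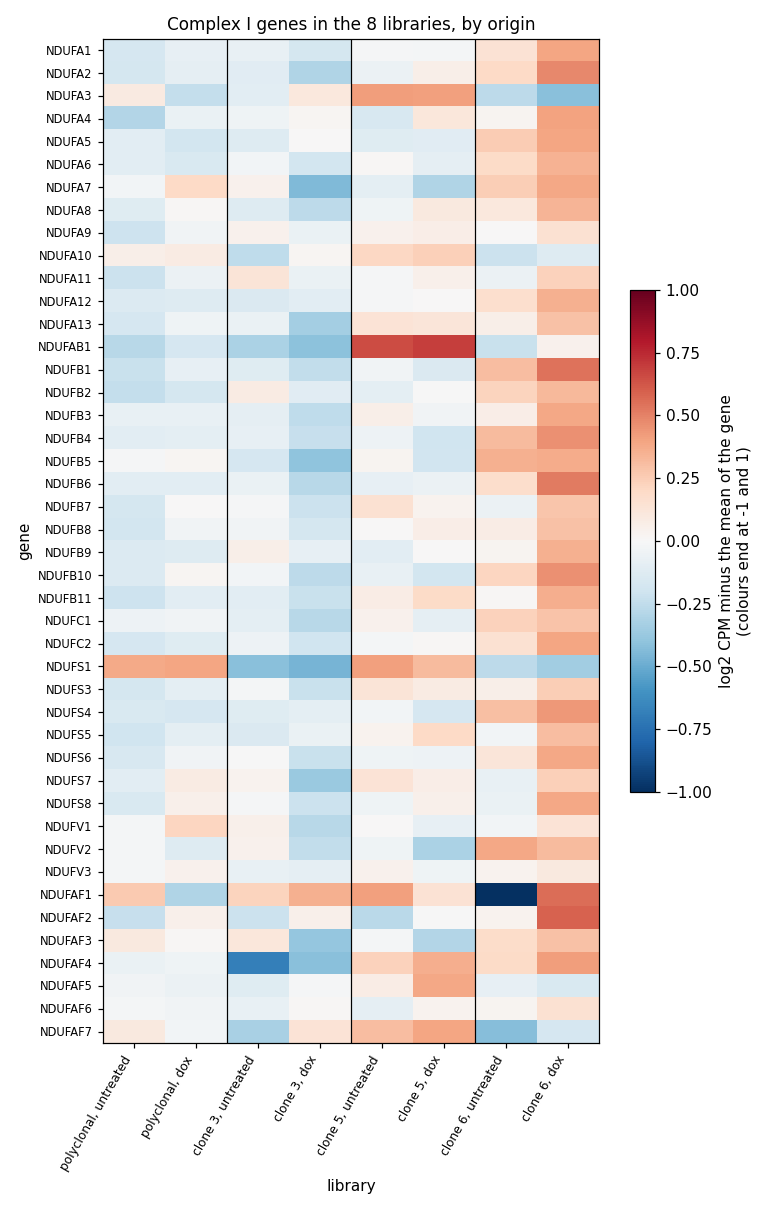
Log2 CPM of each of the 44 genes (rows) minus its own mean over the 8 libraries (columns, by origin), with colours ending at -1 and 1. NDUFAB1 is high in both clone 5 libraries, NDUFS1 is low in both libraries of clones 3 and 6, and most subunits are highest in clone 6 with doxycycline.

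NDUFAB1 and NDUFS1 did not have clone 6 highest, and were singled out after their values were seen. They were not the only such members. NDUFA10 and NDUFAF7, both matched only in part, had clone 5 highest and clone 6 lowest (adjusted p = 0.0366 and 0.0454 in edgeR's origin F test). NDUFAB1 (gene 4706, chromosome 16, 23581014 to 23596316) encodes the mitochondrial acyl carrier protein, which sits in the complex and also serves fatty acid and lipoic acid synthesis. It was at 126 and 130 CPM in the untreated and doxycycline cultures of clone 5. In the polyclonal population it was at 66.1 and 71.5 CPM, in clone 3 at 64.5 and 60.5, and in clone 6 at 68.6 and 82.7. The 2 clone 5 libraries stood above all others (origin F test, adjusted p = 0.000971 in edgeR), and without clone 5 the adjusted p was 0.197. Both clone 5 libraries were above the other 6 in 5 of the 44 members, NDUFA3, NDUFA10, NDUFAB1, NDUFAF5 and NDUFAF7, against 8.11% of all genes. All of these but NDUFAB1 were matched only in part, so their values cover a fraction of the gene's reads.

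The difference at NDUFAB1 was shared by genes around it. Of 32 other tested genes that start within 2 Mb of it, 25 had both clone 5 libraries above the other 6, and 31 had a higher mean log2 CPM there. The median difference of the neighbours was 1.00 on the log2 scale, beside 0.90 for NDUFAB1 and 0.02 for all genes. Over chromosome 16, 155 of 698 tested genes (22.2%) were apart in this way. One of the neighbours, UQCRC2, encodes a core subunit of complex III and was at 295 and 320 CPM in clone 5 and 142 to 183 CPM in the other 6 libraries. Copy number was not measured.

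NDUFS1 (gene 4719, chromosome 2, 206114817 to 206159444) encodes the largest core subunit of the N module. It was at 237 and 240 CPM in the untreated and doxycycline cultures of the polyclonal population, and at 243 and 227 CPM in clone 5. In clone 3 it was at 136 and 132 CPM, and in clone 6 at 152 and 144. The 4 high libraries did not overlap the 4 low ones (adjusted p = 0.000417 in edgeR's origin F test, 0.00335 or less when any 1 origin was left out). The same split held in 2 of the 44 members, NDUFA10, matched only in part, and NDUFS1, against 7.5% of all genes. Of its 13 tested neighbours within 2 Mb, 0 were split in this way, and their median difference was 0.16, beside 0.75 for NDUFS1. NDUFS1 was not called with doxycycline in edgeR (log2 fold change -0.052 ± 0.049, adjusted p = 0.573), and was lower in 3 of 4 pairs.

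NDUFAF4 had the second widest spread between origins, with clone 3 at 18.9 CPM and clone 6 at 34.2 CPM as means of both cultures (1.81-fold; adjusted p = 0.00285 in edgeR's origin F test). The narrowest spread among the subunits was that of NDUFV3, at 43.2 CPM in the lowest origin and 47.9 CPM in the highest (adjusted p = 0.484). NDUFB4, a distal arm subunit, was at 146 CPM in clone 6 and 100.2 CPM in clone 3 (adjusted p = 0.00809).

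Single transcripts carried at least 90% of the TPM in 30 of the 44 genes. In 13 genes 2 or more transcripts had at least 10% each, and changes in these shares were not tested. In NDUFAF1, matched only in part, 1 of the 2 matched transcripts was at 0 TPM in untreated clone 6. The shares of these 2 make up the whole gene, so each mirrors the other. Of the 30 transcripts of the 13 genes, 3 had shares that did not overlap between groups, these 2 and 1 of NDUFB5. How many transcripts of all genes were apart in this way was not counted. In NDUFV3, which makes a long and a short protein, NM_001001503 took 25.8% to 29.1% of the gene's TPM in the untreated cultures. With doxycycline it took 27.9% to 36.1%. The groups overlapped, while the share rose in every pair. Most of the TPM of NDUFV3 went to a predicted transcript, at a mean of 61.7% untreated and 56.7% with doxycycline. The curated NM_021075 was at 11.2% and 10.0%. A shift between the long and the short protein was not tested. Reads shared with the antisense or divergent transcripts NDUFB2-AS1, NDUFV2-AS1, NDUFA6-DT and NDUFV1-DT and with the readthrough NDUFC2-KCTD14 may be split between genes, since the strand setting of the counting is not given in the sources used here.

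Among 14 other complex I genes, 1 was called. TMEM70, which takes part in the assembly of ATP synthase and of complex I, was at 42.9, 48.4, 45.9 and 53.5 CPM untreated and 48.6, 55.4, 58.0 and 68.3 CPM with doxycycline. It was higher in 4 of 4 pairs (log2 fold change 0.27 ± 0.06, adjusted p = 0.0433 in edgeR). The call was lost without the block (adjusted p = 0.701 in edgeR). DMAC1, an assembly factor of the distal arm, was at 50.1 ± 8.89 and 38.5 ± 8.57 CPM and lower in 4 of 4 pairs (-0.39 ± 0.11, adjusted p = 0.0707). ACAD9, an early assembly factor, was lower in 4 of 4 pairs (-0.18 ± 0.06, adjusted p = 0.119), and TMEM126A, a factor of the membrane arm, higher in 4 of 4 (0.22 ± 0.08, adjusted p = 0.138). Neither passed the test. The 7 mitochondrially encoded subunit genes were not analysed here, since 0 of them are among the genes summed.

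In the rest of the chain, 0 of 8 genes of complex II, 0 of 9 of complex III and 0 of 18 of ATP synthase were called. At an unadjusted p under 0.05 none of these 35 was found either, again without a count over all genes. In complex IV, 1 of 11 was called: COX7B was at 158, 165, 182 and 186 CPM untreated and 117, 90.6, 106 and 129 CPM with doxycycline. Its groups did not overlap, and its log2 fold change of -0.65 ± 0.08 (adjusted p = 0.00745) was the largest in size among the lists of the respiratory chain. COX7B was not called without the block either (adjusted p = 0.15 in edgeR). Of the 12 regulators of mitochondrial genes, 11 passed the filter and 0 were called by edgeR. NRF1 was at 29.7 ± 1.76 and 27.1 ± 0.808 CPM (adjusted p = 0.272), YY1 at 160.4 ± 9.23 and 172 ± 4.16 CPM (adjusted p = 0.334), and ESRRA at 45.4 ± 6.09 and 52.1 ± 5.81 CPM (0.20 ± 0.08, adjusted p = 0.19). PPARGC1A did not pass the filter.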

How the data were processed

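The authors quantified paired reads with Salmon against RefSeq transcripts of GRCh38, and 8 deposited files hold the estimated counts and TPM of 158867 transcripts each. The deposited DESeq2 table holds a mean signal of normalised counts, used to check the matching; its fold changes and p-values were not used. The file of untreated clone 5 was written with another transcript order and more decimals. Transcripts were matched by accession (72.6%), and estimated counts were summed per symbol and rounded. The older symbol NDUFA4 was restored for COXFA4.

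Genes were filtered with filterByExpr, normalised by TMM and tested in edgeR 4.0.16 (R 4.3.3) with origin as the replicate block, at 0.05 after Benjamini-Hochberg adjustment over 15993 genes. Cultures of an origin share their cells, and deviations of same-origin cultures correlated at 0.406 to 0.59, those of different origins at -0.395 to 0.179. Alternatives were no block, DESeq2 1.42.0 with and without it, its size factors, a filter of 1 count, an effective length offset, curated transcripts and leaving out each origin; removal of a length trend (lowess, span 0.3) was added later. On simulated data for the comparison of doxycycline with untreated (15993 genes), 67% of planted log2 changes of 1 and 42% of 0.5 were found. The changes were planted in genes drawn at random from all those tested, so these shares do not describe the members.

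Members and lists were chosen with earlier results of these data known. Named genes were those called, at least 6 by smallest p, the 2 highest and 2 lowest by TPM, and up to 4 per list. A gene of the other complex I genes is not reported here.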

Additional observations from a re-analysis of the deposited data

Results flagged for a closer look

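In 92 groups of 4 cultures (44 members, FEZF1 and the assigned reads, untreated and doxycycline apart), 11 had 1 culture far from the other 3. If the groups were independent, chance would flag about 1 in 20, or 4.6. Genes measured in the same cultures are not independent, so 11 beside 4.6 is not a test of chance. In 10 of the 11 that culture was clone 6. Untreated clone 6 stood apart at 102 CPM for NDUFA5 (others 77.9 to 79.0), 139 for NDUFB4 (104 to 108), 74.7 for NDUFB6 (61.5 to 63.2), 39.2 for NDUFAF2 (31.8 to 32.9) and 1.73 for NDUFAF1 (6.30 to 7.18), a gene matched in part. With doxycycline, clone 6 stood apart at 152 CPM for NDUFA6 (others 105 to 112), 66.4 for NDUFB1 (38.3 to 42.9), 153 for NDUFB4 (94.96 to 104), 65.5 for NDUFS4 (43.0 to 45.3) and 57.5 for NDUFAF2 (38.1 to 39.6). The exception was untreated clone 5, at 126 CPM for NDUFAB1 (64.5 to 68.6).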

How the results depend on the processing

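The median log2 fold changes of subunits and of assembly factors moved by less than the SD between pairs under all 13 alternatives. That limit is loose, since leaving out 1 of 4 pairs can hardly shift a median so far, and it does not show stability. The ranges were wide: -0.03 to 0.10 for the subunits, below 0 without clone 6, and 0.08 to 0.20 for the assembly factors. The count of subunits called was 0 in edgeR and became 1 in DESeq2 with the replicate block and 2 with the length trend removed. The count of assembly factors called, 1 with the replicate block, became 0 without it in edgeR and DESeq2, 0 with curated transcripts only, 0 with the length trend removed and no replicate block, and 0 with each origin left out in turn. All genes called, 1221 with the replicate block, became 1 without it, 1881 in DESeq2 with the replicate block, 210 in DESeq2 without it, 493 with curated transcripts, 1 with the length trend removed and no replicate block, and lay between 175 and 699 with 1 origin left out (699 lacking the polyclonal population, 461 lacking clone 3, 175 lacking clone 5 and 230 lacking clone 6). FEZF1 kept its direction in 13 of 13, and did not pass without the replicate block (log2 fold change -0.80) or without it and with the length trend removed (-0.81). Members called between origins, 23, became 14 with curated transcripts and 3 to 26 when 1 origin was left out, the 3 being without clone 6. The share of all genes called between origins is not given for these settings. NDUFAF2 had a positive log2 fold change in 13 of 13 (0.27 to 0.36) and passed in 5. The causes were not tested, beyond the fewer cultures that leaving out an origin leaves. With 4 pairs, the subunits' standard errors of 0.0493 to 0.15 limit which changes could be detected.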
